A study of Mus musculus with 11 samples.

Results

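The collagen genes of the mouse heart were followed across 11 libraries, 5 from hearts of a mouse model of polycystic ovary syndrome (PCOS) and 6 from control hearts. Members were all rows of the expression table whose RefSeq accession mapped to a collagen gene symbol (Col, a number, the letter a and a number) and whose mean was at least 0.1 FPKM (sequenced fragments relative to transcript length and library size) over the 11 libraries. This gave 28 genes of 40 collagen rows, in a table of 21878 rows. They comprised 7 fibrillar collagens, 8 basement membrane collagens and 13 collagens of other types. Col7a1, Col14a1, Col16a1 and Col27a1 were not analysed here.

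Collagens are secreted proteins built from alpha chains wound into a triple helix, with each chain encoded by its own gene. In the heart, fibrillar types I and III form the fibres between muscle cells and are made mainly by fibroblasts, while type IV forms the sheet-like network of the basement membranes around cardiomyocytes and capillaries. Excess fibrillar collagen is the material of cardiac fibrosis, and type VI and the multiplexins XV and XVIII link basement membranes to the surrounding matrix.

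Both groups were hearts of wild-type female mice. Mice of the PCOS group had been treated prenatally with anti-Müllerian hormone (AMH), and those of the control group prenatally with phosphate-buffered saline. The study asked which heart transcripts differ between them. Strain, age, heart chamber, litter and batch are not given in the labels, and nothing in them ties each library to a mouse of its own. The p-values here therefore rest on the spread between libraries alone, some of which may be technical.

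Reads recovered from the FPKM values summed to 11866291 (control replicate 5) to 14346620 (PCOS replicate 3) per library, and the cardiomyocyte markers summed to 35465 to 43769 FPKM in every library. Of these reads, 12446 (control replicate 4) to 19969 (control replicate 1) per library fell in the 28 collagens. Several control libraries stood apart. In control replicate 6 a list of 6 liver markers summed to 1739 FPKM, and its median correlation with the other libraries across genes was 0.962, against 0.987 to 0.993 elsewhere. In control replicates 2 and 5 Apoe was at 6.04 and 8.29 FPKM, against at least 98.8 in the other libraries, and Irs2 at 7.50 and 8.71 FPKM, against at most 2.36. Control replicate 4 had the highest level of Nppa (1474 FPKM). The other atrial markers listed were not raised there, with Myl7 and Sln at 0 and Myl4 at 1.45 FPKM. This library also had low levels of most collagens, described with the results.

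The type IV genes lie in the genome as head-to-head pairs, so sequence around their starts is shown first. Sequences and positions are from RefSeq tables of GRCm38.p6, the assembly carried by mm10. Promoter windows of 300 bases (250 before a start and 50 after it) were matched for 23 of the 28 members, which leaves Col1a1, Col5a2, Col4a3, Col9a3 and Col22a1. The starts of Col4a1 (chromosome 8, from 11198423 to 11312889, minus strand) and Col4a2 (chromosome 8, from 11312805 to 11449287, plus strand) overlapped by 22 bases in the promoter windows, with Col4a1 beginning at 11312826 and Col4a2 at 11312805. A CCAAT match began 32 bases before the Col4a2 start. The starts of Col4a5 (141475419) and Col4a6 (141474076) on chromosome X are divergent and have 1342 bases between them. On chromosome 1, 71 bases separate the Col4a4 start of the promoter windows (82586849) from the start of the Col4a3 gene (82586921). The Col4a4 gene bound, 82587034, lies beyond that Col4a3 start, so by gene bounds these genes overlap. The 4 stretches below, all on the plus strand, are the shared Col4a1 and Col4a2 start and the exon-free sequence before Col4a5, Col3a1 and Col1a2, which represent the type IV chains and the fibrillar chains whose values follow. Capitals mark matches on either strand to CCAAT, to the GC box GGGCGG or to TATAAA.
Col4a1 and Col4a2 shared start, chr8:11312805-11312826: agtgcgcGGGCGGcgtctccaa
Col4a5, chrX:141475169-141475369: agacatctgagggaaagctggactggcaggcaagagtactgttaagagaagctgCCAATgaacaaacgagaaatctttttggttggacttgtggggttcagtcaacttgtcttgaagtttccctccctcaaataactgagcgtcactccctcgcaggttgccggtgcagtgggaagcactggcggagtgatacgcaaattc
Col3a1, chr1:45311288-45311537: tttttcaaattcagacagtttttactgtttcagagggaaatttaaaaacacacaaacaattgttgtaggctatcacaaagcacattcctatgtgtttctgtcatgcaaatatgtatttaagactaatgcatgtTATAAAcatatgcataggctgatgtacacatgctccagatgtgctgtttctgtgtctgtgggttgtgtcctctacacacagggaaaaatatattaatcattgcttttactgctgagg
Col1a2, chr6:4505370-4505492: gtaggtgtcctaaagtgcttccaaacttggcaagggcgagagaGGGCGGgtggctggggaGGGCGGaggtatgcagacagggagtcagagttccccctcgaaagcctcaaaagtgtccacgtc

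Over the whole windows, CCAAT was found in 6 of the 23 members (Col18a1, Col1a2, Col4a1, Col4a2, Col4a5 and Col5a3), against 37.4% of all 32851 RefSeq promoter windows of that length. GGGCGG was found in 15 of 23 members, against 35.7% of all windows. TATAAA was found in 3 of 23 members (Col11a2, Col13a1 and Col3a1), against 13.6% of all windows. A member was counted when any window of that gene held the match, while the share over all windows counts single windows. The member counts and the shares are therefore not in like units. These matches describe letters in the windows and were not tested for factor binding.

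The collagen transcripts of these hearts were dominated by a few genes. Mean levels over the 11 libraries ranged from 0.10 FPKM (Col9a2) to 41.2 FPKM (Col4a2), a 411-fold range. Col4a2 and Col4a1 held 40.9% of the summed mean level of the 28 members, and the 8 most abundant (Col4a2, Col4a1, Col3a1, Col6a1, Col1a2, Col15a1, Col1a1 and Col6a2) held 85.6%. The next tier, between 1 and 6 FPKM, held Col4a5, Col8a1, Col5a1, Col5a2, Col6a3, Col18a1, Col5a3 and Col4a4. The remaining 12 members lay between 0.1 and 1 FPKM. Just inside the limit were Col8a2 and Col9a2, and just outside it was Col26a1 at 0.0962 FPKM, followed by Col25a1. All 12 collagen rows under the limit together made up 0.168% of the family total.

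**Figure D1:**
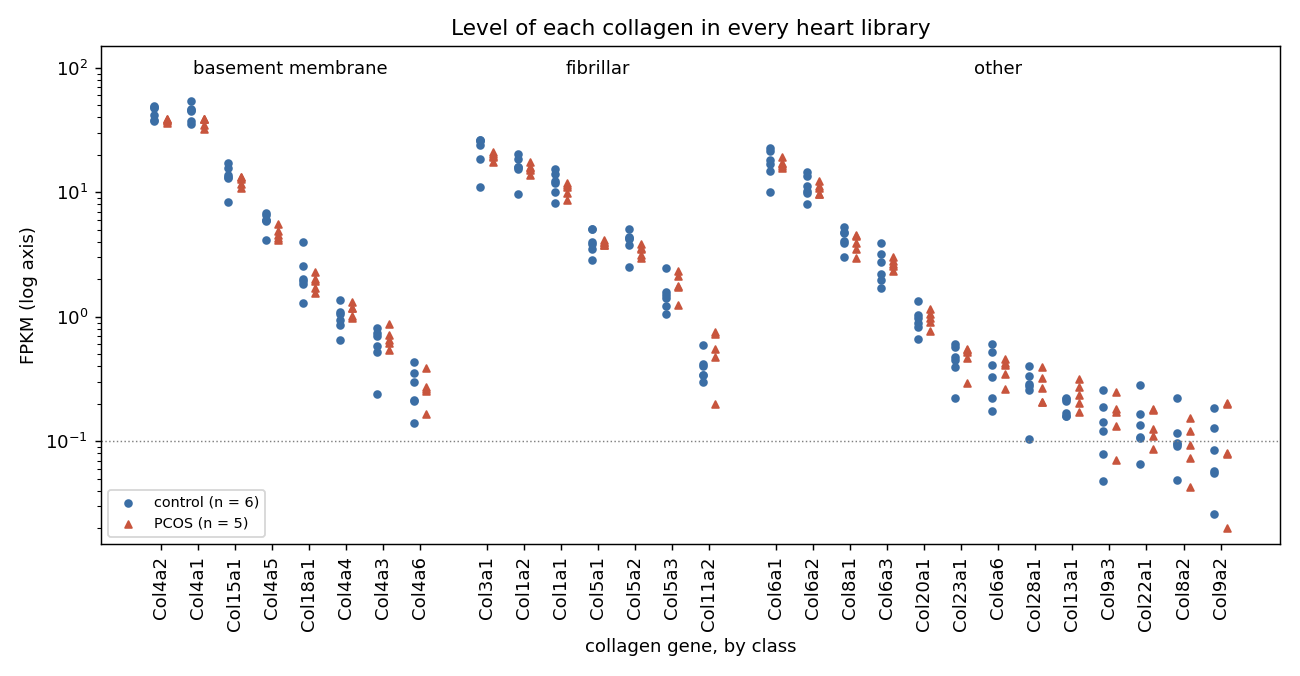
FPKM of each of the 28 collagens (log axis) in 6 control libraries (circles) and 5 PCOS libraries (triangles), grouped by class; the dotted line marks the 0.1 FPKM limit, and the value of 0 for Col9a2 in PCOS replicate 4 is drawn at the floor of the axis. In each class a few chains stand far above the rest, and the groups overlap in every gene.

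None of the 16 collagens with a mean of at least 1 FPKM passed the test for a difference between PCOS and control hearts. The test was limma on log2(FPKM + 1), adjusted by the Benjamini-Hochberg method over all 10891 rows with a mean of at least 1 FPKM, with a call at an adjusted p under 0.05; 0.138% of these rows were called, all of them higher in PCOS. A negative difference on that log2 scale is a lower mean in PCOS. Adjusted p-values of the collagens ran from 0.738 to 0.991 (limma). Of the 16, 12 were lower and 4 higher in PCOS by their mean difference, where 49.4% of all rows were lower, and the median difference of the collagens was -0.11, beside 0.0017 over all rows. At an unadjusted p under 0.05, 3 collagens were lower (Col4a5, Col4a2 and Col4a1; limma), beside 3.17% of all rows, and 0 were higher, beside 3.51% of all rows. In a second limma fit over 13851 rows with a mean of at least 0.1 FPKM and a pseudocount of 0.1, 0 of 28 members were called (0.13% of rows), with 15 lower and 13 higher (48.9% of rows lower). There 3 members were lower at an unadjusted p under 0.05 (2.81% of rows) and 0 higher (3.63% of rows). With limma's voom on the recovered reads, 3 of 16 were lower at an unadjusted p under 0.05 (3.34% of rows) and 0 were called (0.11% of rows). The groups overlapped in every member: 0 of 16 had all PCOS libraries below all controls, beside 0.248% of rows, or above them, beside 0.45%, and 0 of 28 did so in the wider set, beside 0.238% and 0.556%.

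The basement membrane collagens had a median difference of -0.17 (6 tested, 5 lower), the fibrillar collagens -0.07 (6 tested, 5 lower) and the other collagens -0.01 (4 tested, 2 lower). The SD of these class medians between replicates of a group was 0.17, 0.21 and 0.21 in that order. That SD is the spread of single libraries and not the uncertainty of a difference between groups, which was not computed for the medians. Single libraries moved these medians: without control replicate 4 the fibrillar median was -0.18 and that of the other collagens -0.12. The fibrillar median was -0.01 with either of control replicates 1 and 5 left out, and -0.04 without control replicate 6 or PCOS replicate 4. The median of the other collagens changed sign, to 0.07, 0.05 and 0.0095, without control replicate 1, control replicate 5 and PCOS replicate 4 in turn. The basement membrane median stayed between -0.23 and -0.14 when any 1 library was left out. The rows tested differed by transcript length: the median difference was 0.11 in rows under 1000 bases, -0.03 in rows of 4000 to 8000 bases, where 11 of the 16 collagens lie (median -0.11), and -0.06 in rows of at least 8000 bases, where 4 collagens lie (median 0.01). The part of transcript length in the collagen differences was not tested.

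**Figure D2:**
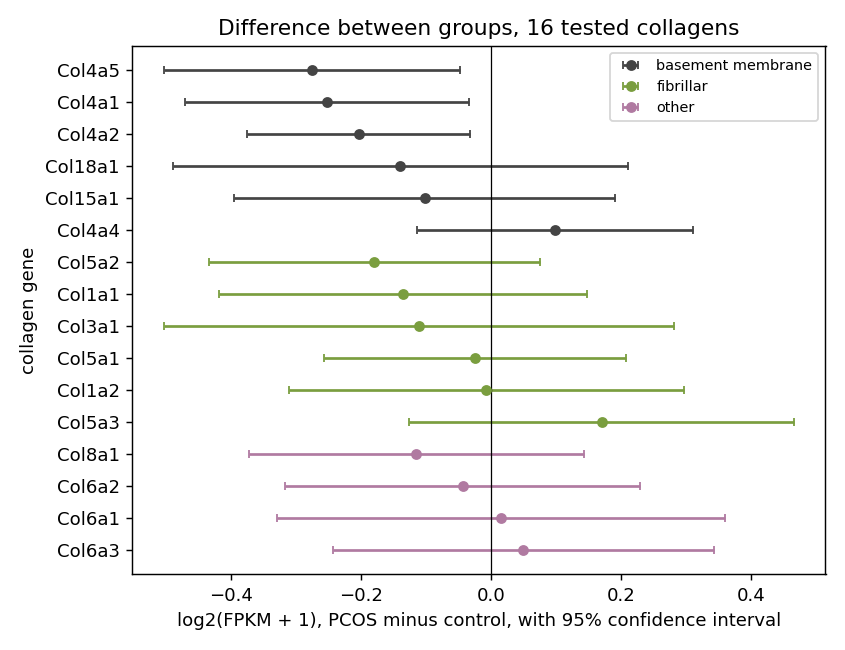
Mean difference in log2(FPKM + 1) of PCOS from control libraries, with its 95% confidence interval for each of the 16 tested collagens, coloured by class. The intervals of Col4a5, Col4a2 and Col4a1 lie below 0 and those of the other 13 include 0; after adjustment over all rows none passed.

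The type IV chains Col4a1 and Col4a2 form the heterotrimer found in nearly all basement membranes, and they were the most abundant collagens. Col4a2 lay between 37.7 and 49.3 FPKM in the control libraries (median 44.7), and at 35.9, 37.4, 38.0, 39.1 and 38.7 FPKM in PCOS replicates 1 to 5. The PCOS libraries sat in a narrow band near the lower end of the control range, and control replicates 3 and 6 overlapped it. The mean was 43.9 ± 5.33 FPKM (SD, n = 6) in the control libraries and 37.8 ± 1.27 FPKM (SD, n = 5) in PCOS, a log2 difference of -0.20 (SE 0.08, 95% interval -0.37 to -0.03, unadjusted p = 0.0241, adjusted p = 0.738, limma).

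Col4a1 lay between 35.4 and 54.3 FPKM in the control libraries (median 45.2), and at 32.2, 38.5, 34.7, 38.9 and 38.7 FPKM in PCOS replicates 1 to 5. Control replicates 3 and 4, at 37.5 and 35.4 FPKM, fell among the PCOS libraries, and the other 4 controls were above them all. The mean was 44.1 ± 6.84 FPKM (SD, n = 6) in the control libraries and 36.6 ± 3.03 FPKM (SD, n = 5) in PCOS, a log2 difference of -0.25 (SE 0.10, 95% interval -0.47 to -0.03, unadjusted p = 0.0271, adjusted p = 0.738, limma).

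Col4a5 encodes a chain that pairs with alpha3 and alpha4 or with alpha6 in specialised basement membranes and is mutated in Alport syndrome. The gene lies on chromosome X from 141475370 to 141689236. Its level was 6.79, 6.59, 6.04, 5.91, 6.03 and 4.12 FPKM in control replicates 1 to 6, and 4.32, 4.52, 4.12, 5.55 and 4.93 FPKM in PCOS replicates 1 to 5. All controls except replicate 6, the library with liver transcripts, were above every PCOS library. The mean was 5.91 ± 0.944 FPKM (SD, n = 6) in the control libraries and 4.69 ± 0.568 FPKM (SD, n = 5) in PCOS, a log2 difference of -0.27 (SE 0.11, 95% interval -0.50 to -0.05, unadjusted p = 0.0215, adjusted p = 0.738, limma). Without control replicate 6 the difference was -0.36 and the adjusted p was 0.0881 (limma), the smallest that any collagen reached under the 23 alternative settings, where Col4a5 ranged up to 1.0.

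The other chains of the type IV family were scarce, and their means lay on the other side or near 0. Col4a4 was at 0.999 ± 0.244 FPKM in the control libraries (SD, n = 6) and 1.13 ± 0.136 FPKM in PCOS (SD, n = 5), a difference of 0.10 on the log2 scale with a 95% interval of -0.11 to 0.31. Col4a3, which assembles with Col4a4 and Col4a5, was at 0.601 ± 0.207 and 0.679 ± 0.13 FPKM, and Col4a6 at 0.275 ± 0.107 and 0.269 ± 0.0794 FPKM. The chains of the alpha3, alpha4 and alpha5 trimer therefore did not share a direction of their means, and none of them passed the test.

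**Figure D3:**
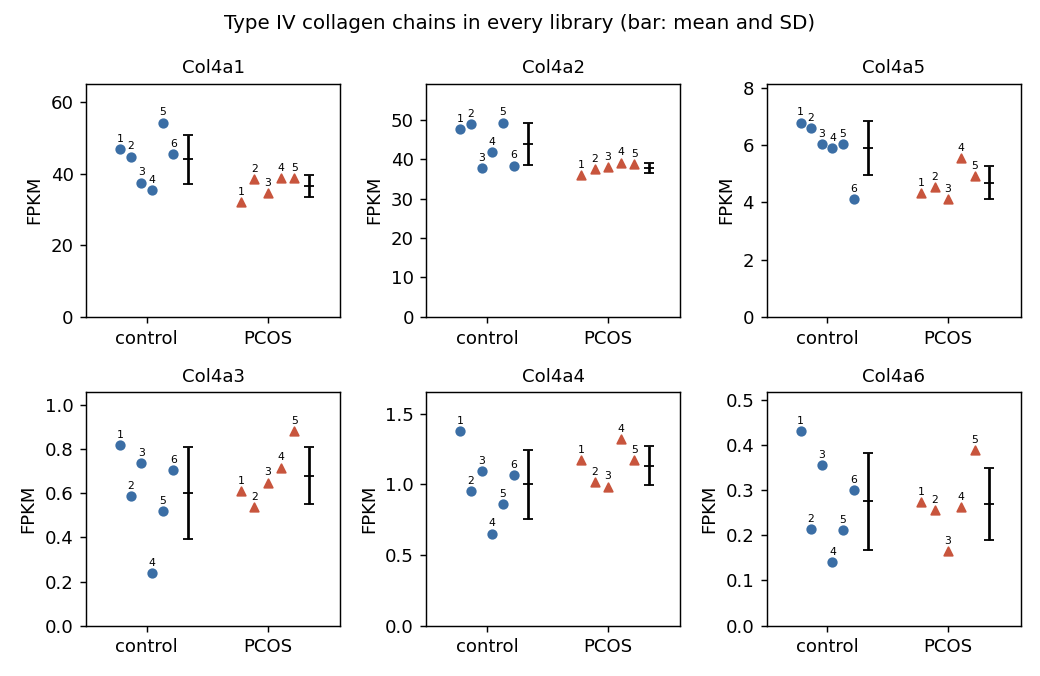
FPKM of type IV chains in every control and PCOS library, one panel per gene, with the axis starting at 0; bars give the mean and SD. Col4a1, Col4a2 and Col4a5 have lower PCOS means with overlapping points, and the scarce chains show no such offset.

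The multiplexins of basement membrane zones, cleaved to give the endostatins, overlapped between the groups. Col15a1, prominent around heart capillaries and muscle cells, lay between 8.44 and 17.1 FPKM in the control libraries (median 13.6) and was at 10.8, 12.9, 13.4, 11.6 and 13.2 FPKM in PCOS replicates 1 to 5. Its log2 difference was -0.10 (95% interval -0.39 to 0.19). Leaving out control replicate 4 gave -0.22, leaving out control replicate 1 gave -0.03, and leaving out PCOS replicate 1 or control replicate 5 gave -0.06. Col18a1, named here after its values were seen, was highest in control replicate 6 at 4.02 FPKM, against 1.28 to 2.58 FPKM in the other controls and 1.55 to 2.28 FPKM in PCOS. Its log2 difference of -0.14 was -0.01 without that library.

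Among the fibrillar collagens, the type I and type III chains gave no detectable difference. Col3a1, the type III chain of fine extensible fibres, lay between 11.1 and 26.3 FPKM in the control libraries (median 24.9), and at 19.5, 19.1, 20.2, 17.6 and 21.2 FPKM in PCOS replicates 1 to 5. All PCOS libraries lay below the 4 highest controls and above control replicate 4, with control replicate 3 (18.5 FPKM) among them. The mean was 22 ± 6.09 FPKM (SD, n = 6) in the control libraries and 19.5 ± 1.35 FPKM (SD, n = 5) in PCOS, a log2 difference of -0.11 (SE 0.18, 95% interval -0.50 to 0.28, adjusted p = 0.883, limma). The difference was -0.28 without control replicate 4 and 0.0070 without control replicates 2 and 5.

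Col1a1 encodes the alpha1 chain of type I, which contributes most of the trimer. It lay between 8.28 and 15.3 FPKM in the control libraries (median 12.1), and at 9.97, 11.5, 11.1, 8.76 and 12.0 FPKM in PCOS replicates 1 to 5, all within the control range. Its log2 difference was -0.13 (95% interval -0.42 to 0.15, adjusted p = 0.813, limma). It was -0.23 without control replicate 4, -0.06 without control replicate 1, -0.07 without PCOS replicate 4 and -0.09 without control replicate 5. Col1a2, the alpha2 chain, lay between 9.75 and 20.4 FPKM in the control libraries (median 16) and at 15.6, 15.1, 16.1, 13.8 and 17.5 FPKM in PCOS. Its log2 difference was -0.01, and its 95% interval of -0.31 to 0.30 gives the size of difference that these libraries could not resolve.

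The type V chains, which nucleate type I fibrils and set their width, were present at a few FPKM. Col5a1 was at 4.04 ± 0.872 FPKM in the control libraries (SD, n = 6) and 3.90 ± 0.143 FPKM in PCOS (SD, n = 5), and Col5a2 at 4.04 ± 0.843 and 3.41 ± 0.348 FPKM. The log2 differences were -0.02 for Col5a1 and -0.18 for Col5a2, with 95% intervals of -0.26 to 0.21 and -0.43 to 0.08. Col5a3, named after its values were seen, had the highest of the 16 differences at 0.17 (95% interval -0.13 to 0.47), with 1.54 ± 0.503 FPKM in the control libraries and 1.84 ± 0.421 FPKM in PCOS. Col11a2, a type XI chain known from cartilage, was the only other fibrillar member, at 0.297 to 0.595 FPKM in the control libraries and 0.199 to 0.758 FPKM in PCOS. Cartilage and valve markers summed to 0.443 to 1.08 FPKM in the control libraries and 0.696 to 1.25 FPKM in PCOS over 6 genes. Matn3, Hapln1 and Chad were under 0.1 FPKM in every library. Sox9, at 0.264 to 1.11 FPKM over the 11 libraries, was at a level like that of Col11a2, and Cnmd was at 0.0569 to 0.371 FPKM.

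Type VI collagen, the beaded filament between cells and basement membranes, led the other types. Col6a1 lay between 10.1 and 22.8 FPKM in the control libraries (median 17.4) and at 17.3, 16.8, 15.6, 16.3 and 19.2 FPKM in PCOS replicates 1 to 5, with a log2 difference of 0.02 (95% interval -0.33 to 0.36). Col6a2 was at 11.3 ± 2.46 FPKM in the control libraries (SD, n = 6) and 10.7 ± 1.13 FPKM in PCOS (SD, n = 5). Col6a3, the longest of the chains, was at 2.62 ± 0.817 and 2.68 ± 0.270 FPKM. The PCOS libraries of all 3 chains lay inside the control range.

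Col8a1, a short-chain network collagen of vessel walls, was at 4.30 ± 0.803 FPKM in the control libraries (SD, n = 6) and 3.88 ± 0.655 FPKM in PCOS (SD, n = 5), with a log2 difference of -0.11. Its partner chain Col8a2 was at 3 to 15 reads per library. Col20a1, a fibril-associated collagen, was at 0.957 ± 0.233 FPKM in the control libraries and 0.975 ± 0.141 FPKM in PCOS. Col23a1, a transmembrane collagen, was at 0.456 ± 0.139 and 0.474 ± 0.105 FPKM. Among the 12 members under 1 FPKM, 9 had a higher and 3 a lower mean difference in PCOS in the fit with a pseudocount of 0.1, at a median of 0.07 on that scale, and none was called. Most of these rest on few reads, and Col9a2 on 0 to 8 reads per library, so differences of the sizes seen among the abundant chains were not detectable there.

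Control replicate 4 had the lowest level of any library in 12 of the 16 tested collagens, where 20.8% of all tested rows had their lowest value in it. Its collagen levels were 63.5% of the median of the other controls at the median over the 16, from 43.0% for Col3a1 to 97.8% for Col4a5, where the median over all tested rows was 95.5%. Fibrillar and other collagens were at 63.9% and 62.9% there, and basement membrane collagens at 70.6%. The same library had the lowest sum of fibroblast markers, 334 FPKM against a highest control sum of 565 FPKM and 451 to 560 FPKM in PCOS, and the lowest sum of endothelial markers, 156 FPKM against 186 to 244 FPKM in PCOS and up to 290 FPKM in the control libraries. Its sums of smooth muscle and pericyte markers (178 FPKM) and of macrophage markers (129 FPKM) were also the lowest of the 11 libraries. Its sum of activated fibroblast markers (168 FPKM) was the highest of the controls, but Acta2 alone held 130 FPKM of it. Fap, Comp, Meox1 and Ccn2 were each at their lowest control level in this library. The part of these markers in the low collagen levels of this library was not tested. In such tissue libraries, fewer cells of a type and less RNA per cell cannot be told apart. Control replicate 1 was the highest library in 8 of the 16 collagens, control replicate 5 in 6 and control replicate 6 in 2.

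**Figure D4:**
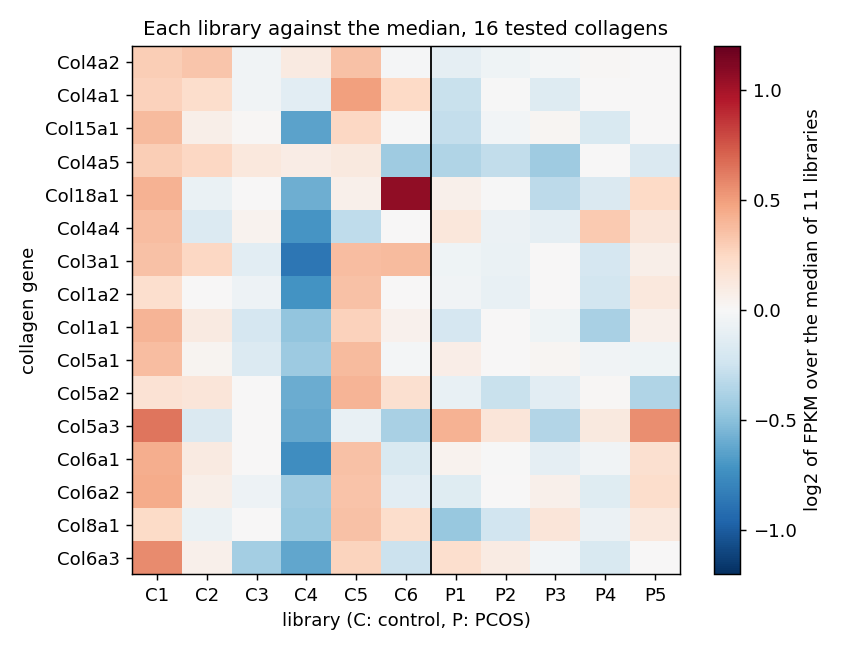
Log2 of the FPKM of each of the 16 tested collagens over its median of the 11 libraries (colour scale), with control replicates C1 to C6 left of the line and PCOS replicates P1 to P5 right of it. The column of control replicate 4 is low in most genes, with Col4a5 near the median, and control replicates 1 and 5 are high.

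The count of collagens lower at an unadjusted p under 0.05 depended on which controls were used, while the count called stayed at 0 of 16 in each of these fits. Without control replicate 4 it was 6 of 16 (Col4a2, Col4a1, Col3a1, Col15a1, Col4a5 and Col5a2; limma), beside 3.81% of all rows, the median difference was -0.20 and 0.101% of rows were called. Without control replicate 6 it was 3 of 16, beside 9.75% of all rows, with 0.294% of rows called. Without control replicates 2 and 5 it was 0 of 16, beside 1.1% of all rows, the median was -0.01, 8 of 16 were lower and 0.0918% of rows were called. Without control replicates 4 and 6 it was 6 of 16, beside 10.8% of all rows, the median was -0.19 and 0.202% of rows were called.

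The summed level of the 28 collagens was 209.9 ± 35.5 FPKM in the control libraries (SD, n = 6), from 154.7 in replicate 4 to 247.4 in replicate 5, and 188.1 ± 8.85 FPKM in PCOS (SD, n = 5), from 178.8 to 202.5. Basement membrane collagens summed to 111.7 ± 14 FPKM in the control libraries and 95.4 ± 5.24 FPKM in PCOS, fibrillar collagens to 60.0 ± 13.8 and 55.5 ± 3.69 FPKM, and other collagens to 38.3 ± 8.86 and 37.2 ± 2.69 FPKM. As shares of the collagen total, basement membrane collagens were 53.6 ± 3.61% in controls and 50.7 ± 1.94% in PCOS, and fibrillar collagens 28.3 ± 2.70% and 29.5 ± 1.5%. The group ranges overlapped in each of these sums and shares, and no test was run on them.

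**Figure D5:**
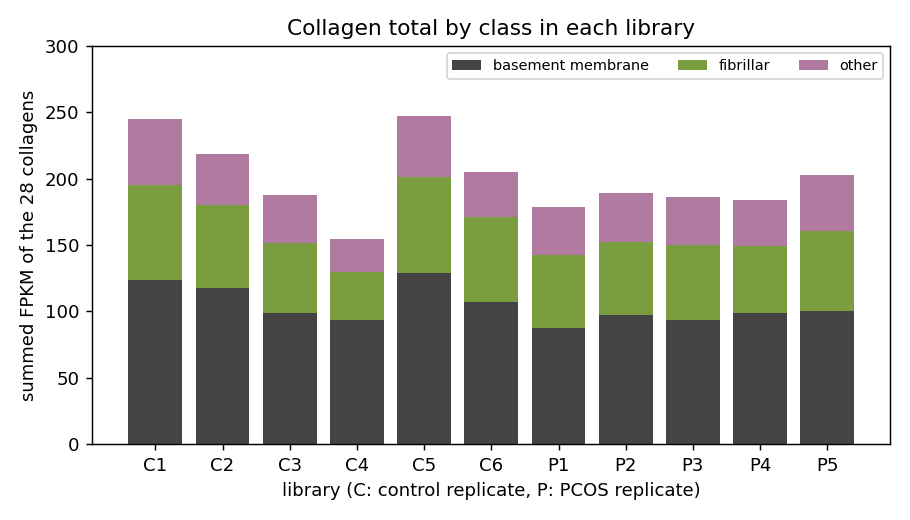
Summed FPKM of the 28 collagens in each library, stacked by class, for control replicates C1 to C6 and PCOS replicates P1 to P5. The total is lowest in control replicate 4 at 154.7 FPKM, and the 5 PCOS totals lie between 178.8 and 202.5 FPKM, inside the control range.

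Ratios of chains within a library were compared for 8 pairs, by an exact two-sided permutation test over all 462 splits, adjusted over the 8 ratios. None passed, with adjusted p from 0.494 to 0.907. Col4a1 over Col4a2 was 1.01 ± 0.124 in controls (SD, n = 6) and 0.967 ± 0.0590 in PCOS (SD, n = 5); the assembled trimer holds more alpha1 than alpha2 chains. Col1a1 over Col1a2 was 0.754 ± 0.0792 and 0.683 ± 0.0509 (log2 difference -0.14, exact p = 0.123, adjusted p = 0.494), where the type I trimer also holds more alpha1. Col5a1 over Col5a2 was 1.01 ± 0.120 and 1.15 ± 0.108 (log2 difference 0.20, exact p = 0.0758, adjusted p = 0.494). Col4a1 over Col1a1, which sets the network collagen against the fibrillar one, was 3.74 ± 0.394 and 3.48 ± 0.544 (exact p = 0.338, adjusted p = 0.900).

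Levels of paired chains were positively correlated across the 11 libraries, within a trimer and between trimers alike. For 6 pairs, 4 of chains that share a trimer and 2 of chains that do not (Col1a1 with Col3a1, Col4a1 with Col1a1), Pearson's r of log2 FPKM was computed with 100000 permutations and adjusted over the 6. Col6a1 and Col6a2 gave r = 0.91 (raw permutation p = 0.000130, adjusted p = 0.000510) and rho = 0.81 (raw permutation p = 0.00411, adjusted p = 0.00822). Col1a1 and Col1a2 gave r = 0.85 (raw permutation p = 0.000320, adjusted p = 0.000640) and rho = 0.85 (raw permutation p = 0.00188, adjusted p = 0.00564), and Col1a1 and Col3a1 r = 0.86 (raw permutation p = 0.000170, adjusted p = 0.000510) and rho = 0.85 (raw permutation p = 0.00155, adjusted p = 0.00564). Without the 2 libraries farthest from the median of the first chain, control replicates 1 and 4, these were 0.82, 0.85 and 0.84 (exact permutation p = 0.00661, 0.00430 and 0.00378).

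In the other 3 pairs r was lower and did not pass once the 2 farthest libraries were left out, a step that also narrows the range of levels. Col4a1 and Col4a2 gave r = 0.78 (raw permutation p = 0.00520, adjusted p = 0.00745) and rho = 0.73 (raw permutation p = 0.0143, adjusted p = 0.0172), r = 0.54 without control replicates 1 and 5 together (exact permutation p = 0.142), and r = 0.75 and 0.68 without either alone (permutation test, adjusted p = 0.0197 and 0.0338). Col5a1 and Col5a2 gave r = 0.77 (raw permutation p = 0.00621, adjusted p = 0.00745) and rho = 0.61 (raw permutation p = 0.0539, adjusted p = 0.0539), r = 0.36 without control replicates 4 and 5 together (exact permutation p = 0.353), and r = 0.61 without control replicate 4 alone (permutation test, adjusted p = 0.0646). Col4a1 and Col1a1, of different trimers, gave r = 0.74 (raw permutation p = 0.00951, adjusted p = 0.00951) and rho = 0.75 (raw permutation p = 0.00993, adjusted p = 0.0149), r = 0.54 without control replicates 1 and 5 together (exact permutation p = 0.133), and r = 0.71 and 0.69 without either alone (permutation test, adjusted p = 0.0224 and 0.0338). Within the 6 controls r was 0.97 for Col6a1 with Col6a2, 0.91 for Col1a1 with Col1a2, 0.91 for Col1a1 with Col3a1, 0.89 for Col4a1 with Col1a1, 0.87 for Col5a1 with Col5a2 and 0.64 for Col4a1 with Col4a2. Within the 5 PCOS libraries, whose levels span less, r was 0.52, 0.83, 0.84, 0.12, 0.34 and 0.80 for the same pairs in that order. Most of these values were lower than in controls, and that of Col4a1 with Col4a2 was higher; with 5 or 6 libraries they are given as descriptions, and the difference between the groups was not tested. The points share their library, and with it the composition of the tissue sample.

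Genes that make, process, organise and bind collagens were followed in 5 lists, with 65 of 86 listed genes tested and 0 called by limma, beside 0.138% of all rows. By their mean difference 37 of the 65 were lower, beside 49.4% of all rows. At an unadjusted p under 0.05, 4 of the 65 were lower and 1 higher (limma), beside 3.17% and 3.51% of all rows. In collagen making, 11 of 19 were higher and 8 lower (median 0.01). Crtap, a subunit of the collagen prolyl 3-hydroxylation complex, was at 21.5 ± 2.64 FPKM in the control libraries (SD, n = 6) and 24.8 ± 1.93 FPKM in PCOS (SD, n = 5), a log2 difference of 0.21 (unadjusted p = 0.0387, adjusted p = 0.738, limma). Mia3, which exports procollagen from the endoplasmic reticulum, and Plod1, a lysyl hydroxylase, had differences of -0.11 and -0.07.

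In processing and cross-linking, 5 of 9 were higher and 4 lower (median 0.0039). Tgm2, a transglutaminase that cross-links matrix proteins, was at 93.9 ± 9.46 and 81.2 ± 9.57 FPKM (log2 difference -0.21, unadjusted p = 0.0308, adjusted p = 0.738, limma). Pcolce, which enhances procollagen cleavage, and the lysyl oxidase Loxl2 had differences of 0.18 and -0.19. Of 15 fibril regulators, 6 were higher and 9 lower (median -0.02), and fibronectin Fn1, lumican Lum and osteoglycin Ogn had differences of -0.22, -0.22 and -0.08.

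Of 13 basement membrane partners, 11 were lower and 2 higher, with a median of -0.11. Nid2, a nidogen that bridges laminin and type IV collagen, was at 6.16 ± 0.898 FPKM in the control libraries (SD, n = 6) and 5.18 ± 0.542 FPKM in PCOS (SD, n = 5), a log2 difference of -0.21 (unadjusted p = 0.0494, adjusted p = 0.738, limma). Perlecan (Hspg2) had a difference of -0.24 and laminin beta2 (Lamb2) one of -0.16, both with an adjusted p of 0.742 (limma).

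Of 9 receptors and uptake genes, 4 were higher and 5 lower, with a median of -0.06. Itga1, whose integrin dimer with Itgb1 binds type IV collagen, was at 5.98 ± 1.17 FPKM in the control libraries (SD, n = 6) and 4.40 ± 0.995 FPKM in PCOS (SD, n = 5), a log2 difference of -0.37 (SE 0.14, unadjusted p = 0.0169, adjusted p = 0.738, limma). Itgb1 was at 89.3 ± 9.13 and 77.2 ± 6.14 FPKM, a log2 difference of -0.20 (SE 0.08, unadjusted p = 0.0216, adjusted p = 0.738, limma), and Cspg4, a proteoglycan of pericytes that binds type VI collagen, had a difference of 0.11.

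Markers of the cells that make these chains were measured beside them. Of 7 fibroblast markers 5 were higher and 2 lower in PCOS with 0 called (limma; 0.138% of all rows were called), and their sums ranged from 334 to 565 FPKM in the control libraries and from 451 to 560 FPKM in PCOS. Activated fibroblast markers summed to 122 to 168 FPKM in the control libraries and 129 to 173 FPKM in PCOS over 5 genes, without Postn and Cthrc1. Of 6 endothelial markers 5 were lower and 1 higher with 0 called (median -0.08). Smooth muscle and pericyte markers summed to 178 to 363 FPKM in the control libraries and 219 to 290 FPKM in PCOS. The highest control sum was that of control replicate 6, the library with liver transcripts, with Vtn at 56.0 and Rgs5 at 186 FPKM. The next highest control sum was 241 FPKM, in control replicate 1. Macrophage markers summed to 129 to 249 FPKM in the control libraries and 277 to 387 FPKM in PCOS over 6 genes, all 6 higher and 1 called, beside 0.138% of all rows. The part of cell makeup in the collagen differences was not tested.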

How the data were processed

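Heart RNA of 6 control and 5 PCOS libraries was compared. Per the labels' protocols, a mirVana kit gave the RNA and a TruSeq stranded mRNA kit the libraries. Tools listed in the submitters' processing notes are HISAT2 2.2.1 and HTSeq 0.13.5, with Trimmomatic 0.38, FastQC 0.11.9, DESeq2 1.18.1 and R 3.4.1, and the build is mm10; the settings and the strand counted are not given in the sources used here. The authors deposited FPKM per gene model and library, used here without further scaling. FPKM divides by transcript length and by the library's total over the listed rows, so levels are relative within a library.

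Symbols came from a RefSeq table of GRCm38.p6: 13175 rows matched by versioned accession, 5903 by another version and 2800 stayed without a symbol (87.2% matched). In each of 15939 rows above 0 in at least 3 libraries, values fitted whole multiples of 1 read within an allowed distance of 0.05, which gave reads per library. The median distance from a whole number was 9.7e-08. Tested on simulated data, the recovery was right in 1500 of 1500 rows, up to a common divisor of the reads in a row.

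Groups were compared with limma 3.58.1 (lmFit, eBayes with trend; R 4.3.3) on log2(FPKM + 1) in the 10891 rows with a mean of at least 1 FPKM, adjusted by Benjamini-Hochberg over them; a second fit took 13851 rows with a mean of at least 0.1 FPKM and a pseudocount of 0.1. Tested on simulated data of 10891 genes with 200 changed, the main fit called 76.1% of genes changed 1.5-fold and 100.0% of those changed 2-fold in the simulated PCOS and control comparison. Changed genes came only from rows with a mean log2(FPKM + 1) above 2, and the noise was Gaussian with the same SD in both groups. The median control SD was 0.28 for the tested collagens and 0.16 for all rows, so these rates may overstate what was detectable for collagens. Ratios and correlations were computed with SciPy 1.17.1.

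The members, gene lists and tests were chosen with earlier results of these data known. Named collagens were the 4 most abundant fibrillar and basement membrane members, the 6 most abundant others, those with an unadjusted p under 0.05, the chains of each ratio and the members nearest the limit of 0.1 FPKM; of each partner list, the 3 genes with the smallest p were named. Other members are named by their values, and those were chosen after the values were seen. Replicate numbers were not treated as pairs in the main fit. Alternatives were other pseudocounts and filters, median-ratio scaling, quantile normalization, sample weights, voom on the recovered reads, the replicate number as a block, leaving out each library in turn and leaving out control replicates 2, 5 and 6; leaving out 2 and 5, or 4 and 6, was added after seeing the data.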

Additional observations from a re-analysis of the deposited data

Results flagged for a closer look

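In 80 groups of 5 or 6 libraries, 7 had a highest or lowest library far from the rest of its group by Dixon's criterion. Chance gives such a flag in about 5% of groups. These groups reuse the same libraries and genes, so the 7 flags are not separate events. Control replicate 4 accounted for 4 of them. Basement membrane collagens made up 60.7% of the collagen total there, the highest of the controls, and fibrillar collagens 23.2%, the lowest. Both shares are parts of the same total, so these flags are linked. In control replicate 4 the ratio of Col4a3 to Col4a4 was 0.367 and that of Col6a1 to Col6a2 was 1.26, each the lowest of the controls. Col4a3 rested on 26 reads there.

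Col4a5 in control replicate 6 was 4.12 FPKM, below the other 5 controls, and this library also held the liver transcripts. The ratio of Col8a1 to Col8a2 in control replicate 5 was 108.3, where Col8a2 rested on 3 reads. The ratio of Col4a1 to Col1a1 in PCOS replicate 4 was 4.44, the highest of the PCOS libraries.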

How the results depend on the processing

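No collagen and no partner gene was called under any of the 23 alternatives (limma). In the alternatives where the share of all rows called was taken, it was 0.0918% to 0.294%, so a count of 0 is near that share. Class medians shifted under the alternatives, and all but the basement membrane median changed sign in some of them. The fibrillar median was 0.027 without control replicates 2 and 5 and 0.074 without 2, 5 and 6, where that of all tested collagens was 0.0037. The median of the other collagens was 0.078 and 0.055 under the same choices, -0.18 without 4 and 6, 0.016 with no filter and 0.043 in the fit from 0.1 FPKM. Leaving out 1 library gave -0.20 to -0.04 for all tested collagens, -0.18 to -0.0097 for fibrillar, -0.23 to -0.14 for basement membrane and -0.12 to 0.065 for other collagens. Adjusted p over the alternatives ranged from 0.0881 to 1.0 for Col4a5, 0.137 to 1.0 for Col4a2 and 0.179 to 1.0 for Col4a1, which stayed lower in PCOS under all of them. Many small differences changed sign; the cause was not tested. Leaving out each library in turn gave ranges of -0.13 to 0.067 for Col1a2, -0.097 to 0.033 for Col5a1, -0.12 to 0.099 for Col6a1, -0.13 to 0.031 for Col6a2, -0.027 to 0.14 for Col6a3, -0.045 to 0.14 for Col20a1, -0.080 to 0.20 for Col23a1, -0.19 to 0.037 for Col8a2 and -0.048 to 0.35 for Col9a2. The log2 ratio differences ranged from -0.092 to 0.052 for Col1a1/Col3a1, -0.083 to 0.094 for Col4a3/Col4a4 and -0.15 to 0.32 for Col8a1/Col8a2, and the correlation of Col5a1 with Col5a2 from 0.61 to 0.82, with an adjusted p of 0.0646 without control replicate 4.

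Without control replicates 2 and 5, an alternative added after seeing the data, Col3a1 was at 0.0070, Col1a2 at 0.093, Col5a1 at 0.047 and Col6a2 at 0.033. Without control replicates 2, 5 and 6, Col3a1 was at 0.15, Col1a2 at 0.14, Col5a1 at 0.056, Col6a2 at 0.0060, Col18a1 at 0.0013 and Col20a1 at -0.14. Without control replicates 4 and 6, also added later, Col6a1 was at -0.20, Col6a3 at -0.084, Col20a1 at -0.084, Col23a1 at -0.018 and Col8a2 at 0.042. Sample weights gave -0.040 for Col6a1, -0.0096 for Col20a1 and 0.066 for Col8a2, quantile normalization 0.0014 for Col1a2, and a pseudocount of 0.1 a Col8a1/Col8a2 difference of -0.045.

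The labels do not say whether replicate numbers pair the libraries. The correlations of deviations between same-numbered libraries were 0.133, -0.032, -0.118, 0.254 and 0.101. The highest correlation of each of these controls with a PCOS library of another number was 0.277, 0.268, 0.201, 0.188 and 0.246. Only replicate 4 was higher with its own number, and these few values cannot settle whether the numbers pair the libraries. With the replicate block, the values were 0.00068 for Col1a2, -0.018 for Col6a1, -0.045 for Col20a1, 0.037 for Col8a2 and -0.15 for Col8a1/Col8a2. Control replicate 6 was alone in its block, so this fit gave the same differences as leaving it out. The members under 1 FPKM rest on at most 141 reads per library. In the fit from 0.1 FPKM their SE ran from 0.17 (Col20a1) to 0.35 (Col9a2), beside 0.08 for Col4a2 and 0.19 for Col3a1. The scarcest of them are limited to large differences.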

Other observations

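Collagen levels varied more between control libraries than between PCOS libraries. The SD of log2(FPKM + 1) was larger in controls in 16 of 16 tested collagens, where it was larger in 71.9% of all tested rows. The median SD of the collagens was 0.28 in controls and 0.12 in PCOS, beside 0.16 and 0.12 over all rows. Without control replicate 4 the count was 15 of 16 (67.0% of rows), and without control replicates 4 and 6 it was 14 of 16 (49.1% of rows), with a median control SD of 0.19 for the collagens and 0.12 for all rows. These libraries were picked out by the data, and the difference in spread was not tested.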
